A study of Homo sapiens with 4 samples.

Results

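The genes described here are the replication-independent histone variants of untreated HaCaT keratinocytes. They were chosen by gene symbol as H2AFX, H2AFZ, H2AFV, H2AFY, H2AFY2, H2AFJ, H3F3A, H3F3B, H1F0 and H1FX, and all 10 had 1 entry each among the 44591 genes of the files, 19233 of which are protein-coding. HaCaT is an immortalized line of human epidermal keratinocytes, and RNA-seq was carried out on 4 replicates of it that received no treatment, so the study's single group had no second condition to be compared with. The cells grew in Dulbecco's modified Eagle medium with fetal bovine serum, given as 12% in the sample labels and 10% in the study's methods. The study's results call the replicates biological repeats. Nothing in the labels says whether they came from separate cultures, so p-values measure only the spread between these 4 libraries.

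Most histone protein is made in S phase from the clustered HIST genes, whose messages end in a stem-loop instead of a poly(A) tail. Replication-independent variants lie outside these clusters, usually have introns or a poly(A) tail, and are made and placed into chromatin through the whole cell cycle by their own chaperones. H2A.X is phosphorylated around DNA double-strand breaks to γ-H2AX. The study read out radiation damage in keratinocytes by this mark and by comet assays, although the RNA-seq libraries measured only the H2A.X message. H2A.Z marks promoters, macroH2A is a feature of repressed chromatin, H3.3 replaces H3 at active genes and telomeres, and linker histones of the H1 class bind the DNA between nucleosomes.

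Levels are given as TPM over protein-coding genes, that is the deposited read count divided by the deposited gene length and scaled so that the protein-coding genes of a library sum to 1000000. Total counts were 73082279 in replicate 1 and 17056035 to 19745170 in replicates 2 to 4, and protein-coding genes held 76.1% of the counts in replicate 1 against 95.3% to 96.4% in the others. The 10 variant genes took 0.184%, 0.296%, 0.328% and 0.228% of the protein-coding counts in replicates 1 to 4, from 41965 to 102423 counts per library. All 10 of 10 keratinocyte marker genes had a mean above 1 TPM, beside 63.3% of all protein-coding genes, led by KRT14 (6847 ± 561 TPM, SD, n = 4) and KRT5. Of the fibroblast, immune and melanocyte markers, 2 of 7, 2 of 5 and 2 of 5 had a mean above 1 TPM, beside the same 63.3%. The sums of these lists ranged from 5.20 to 9.70, from 11.5 to 52.1 and from 3.74 to 9.12 TPM. Their markers above 1 TPM were COL1A1 (3.96 TPM) and LUM (1.23 TPM), CD68 (26.5 TPM) and CD14 (6.25 TPM), and MITF (4.91 TPM) and PMEL (1.97 TPM). The melanocyte gene TYR had no count in any library, and PTPRC, present on nearly all leukocytes, was at most 0.0166 TPM. Replicate 1 stood apart from the others in its RNA classes and its depth, so the levels and differences that it moves most are also given without it.

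All 10 variant genes had a mean above 1 TPM, as did 63.3% of all protein-coding genes (12165 of 19233). In bulk RNA, fewer cells of a kind and less RNA per cell cannot be told apart. The means ran from 642 TPM for H1F0 to 19.98 TPM for H2AFY2, and the variant genes fell into a group of 7 above 200 TPM and a group of 3 (H2AFV, H2AFJ and H2AFY2) below 100 TPM in every replicate, with the exception that H2AFX, H1F0 and H2AFY had values of 124, 169 and 171 TPM in replicate 1.

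**Figure D1:**
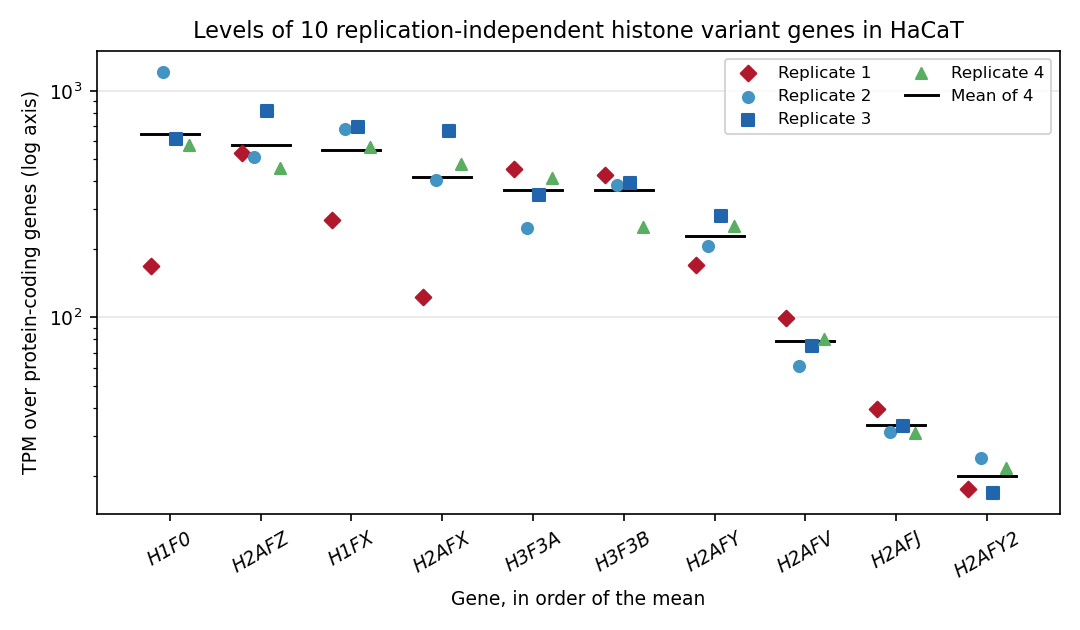
Level of each variant gene in each replicate, as TPM over protein-coding genes on a log axis, with genes in order of their mean (horizontal bars). Replicate 1 (red diamonds) lies far below the other replicates for H1F0 (169 TPM), H1FX (270 TPM) and H2AFX (124 TPM). With the deposited lengths used here, the last 3 genes keep their order in all 4 replicates.

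H2AFX encodes H2A.X and is located on chromosome 11 (118964584 to 118966177, minus strand; hg19, the build of the files' positions). Its level was 124, 406, 662 and 477 TPM in replicates 1 to 4, with a mean of 417 ± 223 TPM (SD, n = 4). It was lowest in replicate 1 and highest in replicate 3, and without replicate 1 the mean was 515 ± 132 TPM (SD, n = 3), which is 4.16-fold the level of replicate 1. These levels rest on 4789, 4300, 9480 and 5667 counts. By its mean H2AFX stood at percentile 97.4 of the detected protein-coding genes, with 315 genes above it, and in single replicates its percentile ranged from 89.7 to 98.3.

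H2AFX is known to give a short message that ends in the histone stem-loop and a longer one with a poly(A) tail. The conserved histone stem-loop, a stem of 6 base pairs with a loop of 4 bases, was searched on the transcript strand in GENCODE release 29. All coding transcripts of a gene were searched, and a match in any of them was counted. The stem-loop was found in 1 of the 10 variant genes (H2AFX), in 32 of the 70 HIST1 to HIST4 genes (45.7%) and in 36 of all 18684 protein-coding genes matched by symbol (0.193%). The H2AFX match and those of 2 HIST genes abundant in replicate 1 are shown to let the element be compared, with 7 bases on each side in lower case and the stem-loop in capitals, 5′ to 3′. Their positions are those of the capitals on GRCh38.
H2AFX (chr11:119094898-119094913, minus strand): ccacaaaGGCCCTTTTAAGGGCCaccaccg
HIST1H3H (chr6:27810516-27810531, plus strand): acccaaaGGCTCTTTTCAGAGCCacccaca
HIST1H4E (chr6:26205001-26205016, plus strand): aatcaaaGGCCCTTTTCAGGGCCgcccaca
In H2AFX the element lies in the 3′ UTR, at bases 555 to 570 of the 1614 bases of H2AFX-202, 50 bases after the stop codon, and 1044 bases of the annotated transcript follow it. The deposited length of 1594 bp is therefore close to that of the long message, and counts per gene do not separate both forms. The poly(A) signal AATAAA was likewise searched on the transcript strand in the last 50 bases of all coding transcripts of a gene. At least 1 transcript held it in 6 of the 10 variant genes (H2AFZ, H2AFY2, H2AFJ, H3F3B, H1F0 and H1FX), in 19 of the 70 HIST genes (27.1%) and in 71.2% of all matched genes. The signal was not among the last 50 bases of H2AFX. No match says only that these letters are not in the window searched.

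The HIST genes that carry the same stem-loop were highest in the replicate where H2AFX was lowest. HIST1H3H, which encodes an H3 of S phase, had 2974, 21.6, 10.1 and 5.68 TPM in replicates 1 to 4, and HIST1H4E, which encodes an H4, had 2612, 13.6, 15.9 and 3.20 TPM. The 32 HIST genes with a match summed to 39548, 522, 438 and 212 TPM, and the 38 without a match to 43284, 481, 483 and 176 TPM. Both sums were thus highest in replicate 1, with or without a match in the annotated transcripts. A HIST gene without a match cannot be taken to lack the element. The part of RNA selection or counting in these values was not tested, and the selection of RNA is not given in the sources used here.

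H2A.Z is made from H2AFZ and H2AFV, whose proteins are nearly identical. H2AFZ (chromosome 4, 100869244 to 100871512, minus strand) had 531, 510, 816 and 457 TPM in replicates 1 to 4 and a mean of 578 ± 162 TPM (SD, n = 4). Its highest value was in replicate 3, and the other 3 replicates lay within a narrow band. H2AFV (chromosome 7, 44866488 to 44887725, minus strand) had 99.4, 60.8, 74.5 and 80.7 TPM and a mean of 78.9 ± 16.03 TPM (SD, n = 4), with replicate 1 as its highest. The values of the H2A.Z genes did not overlap. H2AFZ supplied 84.2% to 91.6% of their summed TPM, and the sum was 630, 570, 891 and 537 TPM.

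MacroH2A, whose large additional domain sets it apart from other histones, is encoded by H2AFY and H2AFY2. H2AFY (chromosome 5, 134670071 to 134735577, minus strand) was at 171, 206, 281 and 254 TPM in replicates 1 to 4, with a mean of 228 ± 49.1 TPM (SD, n = 4), lowest in replicate 1 and highest in replicate 3. H2AFY2 (chromosome 10, 71812357 to 71872040, plus strand) was at 17.5, 24.0, 16.8 and 21.7 TPM, with a mean of 19.98 ± 3.41 TPM (SD, n = 4), lowest in replicates 1 and 3. H2AFY2 was the only 1 of the 10 below the middle of the detected genes, at percentile 44.2. H2AFY made up 89.6% to 94.3% of the macroH2A sum of 188, 230, 298 and 276 TPM.

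H2AFJ encodes H2A.J, a close relative of canonical H2A known to accumulate in senescent cells. From its place on chromosome 12 (14927270 to 14930936, plus strand) it gave 39.6, 31.3, 33.2 and 30.9 TPM in replicates 1 to 4, with a mean of 33.7 ± 4.02 TPM (SD, n = 4). The values lay closer together than those of any other variant gene, with a log2 range of 0.35 and replicate 1 highest in TPM over protein-coding genes. The level of H2AFJ depends on the length used. The deposited length is 3667 bp and the coding transcript in GENCODE has 644 bp. With GENCODE lengths for all genes its mean was 222 TPM and it was 7th of the 10 genes instead of 9th, while H2AFY, whose length also changed, was at 204 TPM.

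H3.3 is a single protein encoded by H3F3A and H3F3B. H3F3A (chromosome 1, 226250408 to 226259703, plus strand) had 450 (449.8), 247, 346 and 413 (412.5) TPM in replicates 1 to 4, and a mean of 364 ± 88.7 TPM (SD, n = 4). H3F3B (chromosome 17, 73772515 to 73776016, minus strand) had 426, 383, 392 and 252 TPM and a mean of 363 ± 76.6 TPM (SD, n = 4). Their lowest values came from different libraries, replicate 2 for H3F3A and replicate 4 for H3F3B, so the share of H3F3A in the sum was 51.4%, 39.2%, 46.9% and 62.1%. The sum itself was 875, 631, 738 and 664 TPM, 727 ± 109 (SD, n = 4), highest in replicate 1 on this scale, although both genes lay more than 2-fold below the others in replicate 1 in TPM over all genes.

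The linker histone genes differed between replicates, H1F0 with the widest log2 range of the 10 genes (2.83) and H1FX with a range of 1.35. H1F0 encodes the linker histone that accumulates in differentiated and resting cells, and is located on chromosome 22 (38201114 to 38203443, plus strand). It had 169, 1213, 610 and 576 TPM in replicates 1 to 4, with a mean of 642 ± 430 TPM (SD, n = 4). Replicate 2 was highest and replicate 1 lowest, a span of 7.16-fold, and without replicate 1 the mean was 800 (799.5) ± 358 TPM (SD, n = 3). H1FX encodes another H1 protein of non-S-phase type and is located on chromosome 3 (129033614 to 129035120, minus strand). Its level was 270 (269.7), 679, 689 and 566 TPM, a mean of 551 ± 195 TPM (SD, n = 4). Replicate 1 was again the lowest, and the other 3 averaged 644 ± 68.2 TPM (SD, n = 3), or 2.39-fold its value. Their sum was 439 TPM in replicate 1 and 1142 to 1891 TPM in the other replicates.

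The order of the genes was only partly shared by the replicates. H2AFZ was highest in replicates 1 and 3 and H1F0 in replicates 2 and 4, and the 3 lowest genes kept the order H2AFV, H2AFJ, H2AFY2 in 4 of 4 replicates. Between neighbours in the order of means, differences on the log2(TPM + 1) scale had the same sign in all 4 replicates for H1FX over H2AFX (0.54 ± 0.48, SD, n = 4), H2AFY over H2AFV (1.51 ± 0.51), H2AFV over H2AFJ (1.19 ± 0.19) and H2AFJ over H2AFY2 (0.73 ± 0.36). The other 5 neighbours changed places between replicates, with H1F0 above H2AFZ, H2AFZ above H1FX and H3F3A above H3F3B in 2 of 4 replicates each, while H2AFX was above H3F3A and H3F3B above H2AFY in 3 of 4, so these neighbours were not separated beyond the spread between replicates. Without length correction, with read counts only scaled to 1000000, H1F0 was still first, but H3F3B moved from 6th to 2nd and H2AFZ from 2nd to 5th. With GENCODE lengths H2AFJ (222 TPM) was 7th and H2AFV (113 TPM) 9th, so their order was reversed. The same length enters every replicate, so agreement between replicates does not bear on this.

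Genes of the same family or class were compared within each replicate in 6 pairs, as the difference of log2(TPM + 1), with a two-sided exact sign-flip permutation test over the 4 replicates and Benjamini-Hochberg adjustment over the 6 pairs. The smallest p this design allows is 0.13, so no difference could pass 0.05. H2AFZ exceeded H2AFV by 2.84 ± 0.49 (SD, n = 4, exact p = 0.13, adjusted 0.25) and H2AFY exceeded H2AFY2 by 3.44 ± 0.41 (SD, n = 4, exact p = 0.13, adjusted 0.25), each in 4 of 4 replicates. Both differences were several times their SD with the deposited lengths. That of H2A.Z depends on the lengths (947 bp for H2AFZ and 4704 bp for H2AFV), since in read counts scaled to 1000000 alone it was 0.54 ± 0.49 (SD, n = 4), again in 4 of 4 replicates. Per kilobase, the reads on H2AFZ were 5.34, 8.38, 10.9 and 5.66 times those on H2AFV in replicates 1 to 4, and those on H2AFY were 8.60 to 16.7 times those on H2AFY2.

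For H3.3, H3F3B minus H3F3A was -0.08, 0.63, 0.18 and -0.71 in replicates 1 to 4, with a mean of 0.0049 ± 0.56 (SD, n = 4), with H3F3B higher in 2 of 4 (exact sign-flip p = 1). The differences in single libraries were larger than counting error. The ratio of reads per kilobase was 0.946 in replicate 1 (95% Clopper-Pearson interval 0.926 to 0.967) and 0.610 in replicate 4 (0.584 to 0.637), both below 1. Replicates 2 and 3 gave 1.55 (1.47 to 1.63) and 1.13 (1.09 to 1.18), above 1, and no interval overlapped another. Such intervals hold counting error and nothing else. Reads may also copy the same molecule, and no molecular identifiers are described in the sources used here. The parity of both H3.3 genes depends on the lengths. With the longest coding transcript of GENCODE as length H3F3B exceeded H3F3A by 0.89 ± 0.56, and in read counts scaled to 1000000 without length by 1.43 ± 0.56 (SD, n = 4), in 4 of 4 replicates in both.

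For the linker histones, H1FX minus H1F0 was 0.67, -0.84, 0.17 and -0.02 in replicates 1 to 4, with a mean of -0.0047 ± 0.63 (SD, n = 4, exact sign-flip p = 1). H1FX was ahead in replicates 1 and 3, H1F0 was ahead in replicate 2, and in replicate 4 the ratio of 0.983 had an interval from 0.952 to 1.01 that includes equality. In read counts scaled to 1000000 without length the mean was -0.63 ± 0.63 (SD, n = 4), with H1F0 ahead in 3 of 4 replicates. H2AFZ exceeded H2AFX by 0.66 ± 0.97 (SD, n = 4, exact sign-flip p = 0.25, adjusted 0.375), in 3 of 4 replicates. This mean rested on replicate 1, where the difference was 2.09, and without it the mean was 0.19 ± 0.22 (SD, n = 3). H2AFJ was below H2AFX in 4 of 4 replicates, by a log2 difference of -3.36 ± 1.19 (SD, n = 4, exact sign-flip p = 0.13, adjusted 0.25), and without replicate 1 by -3.95 ± 0.31 (SD, n = 3). With the shorter GENCODE length of H2AFJ that difference was -0.87 ± 1.19, and H2AFJ was then above H2AFX in 1 of 4 replicates.

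**Figure D2:**
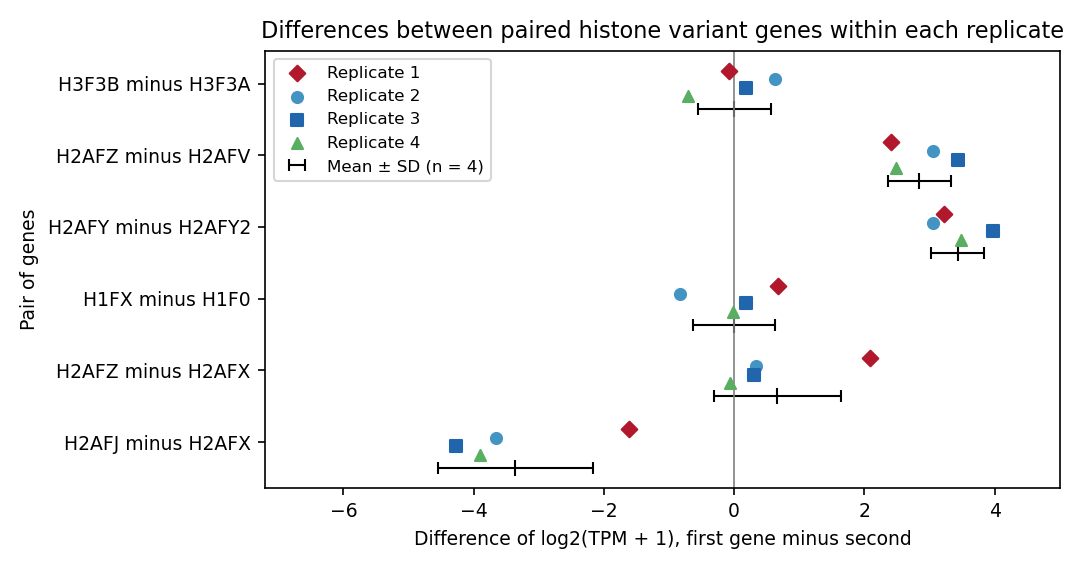
Difference of log2(TPM + 1) between paired variant genes within each replicate (points), with the mean and SD over the 4 replicates (black bars). The pairs H2AFZ minus H2AFV and H2AFY minus H2AFY2 lie to the right of 0 in all 4 replicates, while H3F3B minus H3F3A and H1FX minus H1F0 lie on both sides of 0.

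Some of these genes share sequence with other genes, over which the counting could have split reads. Of the stretches of 50 bases in the longest coding transcript, 12.9% were also found in other genes for H3F3A, 8.28% for H3F3B (H3F3C), 6.45% for H2AFZ (H2AFZP3), 3.06% for H2AFV and 0.319% for H2AFX (HIST3H2A), and none for the other 5. H3F3AP4, a copy of H3F3A, was listed with 2650, 227, 502 and 453 counts in replicates 1 to 4, or 22.8%, 13.0%, 15.2% and 13.9% of the counts of H3F3A itself, and H3F3AP6 with 1093, 38, 62 and 63 counts. With both copies added to H3F3A, an alternative chosen after seeing the data, the mean difference H3F3B minus H3F3A turned to -0.26 ± 0.58 (SD, n = 4, exact sign-flip p = 0.375). The level of H3F3A is thus uncertain by this amount. Listed pseudogenes of H2AFZ and H2AFV had at most 12 counts. Among genes on the opposite strand, the antisense gene over 350 bp of H2AFZ had 2 to 16 counts, and C5orf66 over 10300 bp of H2AFY had 84 to 140, while AIFM2 and H1FX-AS1 overlap H2AFY2 and H1FX by 18 bp and 7 bp. Whether the counting used strand is not given in the sources used here.

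Over the replicates, the level of the 10 variant genes had a median log2 range of 0.80, from 0.35 for H2AFJ to 2.83 for H1F0, beside 1.16 for all protein-coding genes with a mean above 1 TPM and 1.10 for the 8936 genes above 10 TPM. H1F0, H2AFX (2.41) and H1FX (1.35) were above these medians, and the other 7 genes (0.35 to 0.86) were below them. The order of both medians depends on the setting. With TPM over all genes the median range was 1.95 for the variant genes and 1.70 for all genes, and with no filter on low values it was 0.80 and 0.77. Without replicate 1 the median range was 0.56 for the variant genes and 0.63 for all genes.

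Each replicate was set against the mean of the other 3 on the log2(TPM + 1) scale, and a gene was counted when it lay more than 2-fold away. In replicate 1, 3 of the 10 variant genes were below, H1F0 (-2.14), H2AFX (-2.02) and H1FX (-1.25), and 20.1% of all genes were. None of the 10 was above in replicate 1, beside 17.4% of all genes. In replicate 2, 1 of 10 was above (H1F0, 1.63, beside 7.83% of all genes) and 0 were below (1.38%). In replicate 3, 1 of 10 was above (H2AFX, 1.20, beside 3.05%) and 0 below (14.4%), and in replicate 4 there were 0 above (6.89%) and 0 below (1.99%). A single library against the others has no test, and with 10 genes a share of 30% differs from the background by 1 gene. Without replicate 1, H2AFX was 0.59 above the others in replicate 3 and no longer counted, while H1F0 stayed at 1.03 in replicate 2. The scaling also matters for replicate 1. With TPM over all genes, coding or not, 10 of 10 variant genes were more than 2-fold below there, as were 62.5% of all genes, and the median deviation of all genes was -1.30. The median deviation of the 10 genes in TPM over protein-coding genes was -0.17, 0.00, 0.25 and 0.17 in replicates 1 to 4, against 0.03, 0.12, -0.23 and 0.13 over all genes.

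GC content moved with replicate 1. The GC content of the longest coding transcript was 40.5% to 46.6% for H3F3A, H3F3B, H2AFV and H2AFZ, 53.2% to 54.9% for H1F0, H2AFY2 and H2AFY, and 62.9%, 66.4% and 68.6% for H2AFJ, H2AFX and H1FX. Genes of like GC content, in 20 bins of all detected genes, had a median deviation in replicate 1 of -0.88 in the bin of H2AFX and H1FX, -0.32 in that of H1F0 and 0.70 in that of H3F3A. H1FX (-1.25) and H3F3A (0.45) lay nearer to the median of their bin than H2AFX (-2.02) and H1F0 (-2.14) did. H2AFJ was 0.31 above the other replicates where its bin was at -0.73. Its GC content is that of a coding transcript of 644 bp, while its deposited length is 3667 bp, so its bin is uncertain. With each replicate centred within the bins, H2AFX (-1.12) and H1F0 (-1.82) were still more than 2-fold below in replicate 1, H1FX was at -0.35 and H2AFJ became more than 2-fold above (1.06). The part of GC content in these differences was not tested further.

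**Figure D3:**
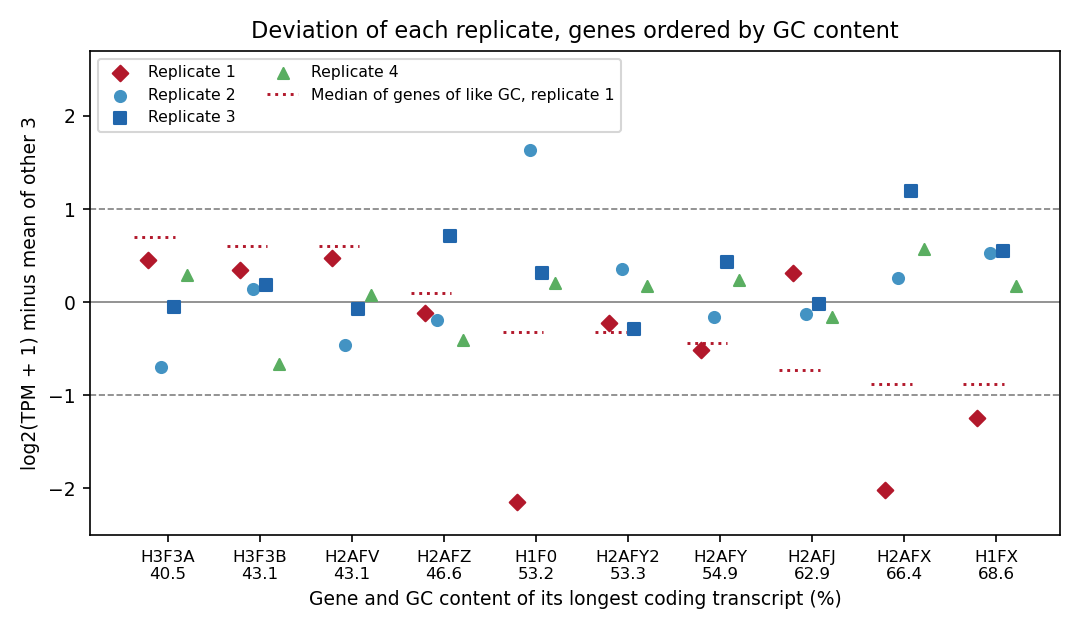
Deviation of each replicate from the mean of the other 3 in log2(TPM + 1), for the variant genes in order of the GC content of their longest coding transcript, with dashed lines at 2-fold. Dotted red bars give the median deviation in replicate 1 of all genes of like GC content. H1F0 and H2AFX lie far below their bar in replicate 1, and H2AFJ lies above its own. The bar of H2AFJ rests on the GC content of a transcript much shorter than its deposited length.

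The variants were set beside the 70 HIST1 to HIST4 genes, and their share was taken of the summed TPM of both. CENPA, an H3 variant outside both sets, was not counted. In the H1 class, H1F0 and H1FX held 4.55% of the TPM in replicate 1 and 92.8%, 88.2% and 97.2% in replicates 2 to 4, with 6 HIST genes making up the rest. In the H2A class (6 variant and 17 HIST genes) the variant share was 4.84%, 79.1%, 86.9% and 90.8%, and in the H3 class (2 variant and 14 HIST genes) it was 5.02%, 89.1%, 93.3% and 95.8%. Replicate 1 was thus far below the others in each class. The variants themselves summed to 2296, 3759, 3921 and 3127 TPM in replicates 1 to 4, while the 70 HIST genes summed to 82831, 1003, 921 and 389 TPM. In H3 the summed variant level was itself highest in replicate 1 in TPM over protein-coding genes. The HIST sum differed between replicate 1 and the others by far more than the variant sum did, and whether libraries kept RNA without a poly(A) tail to the same extent was not tested. In replicates 2 to 4 the variant share was 92.8% ± 4.47 (SD, n = 3) for H1, 85.6% ± 5.94 for H2A and 92.8% ± 3.38 for H3.

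**Figure D4:**
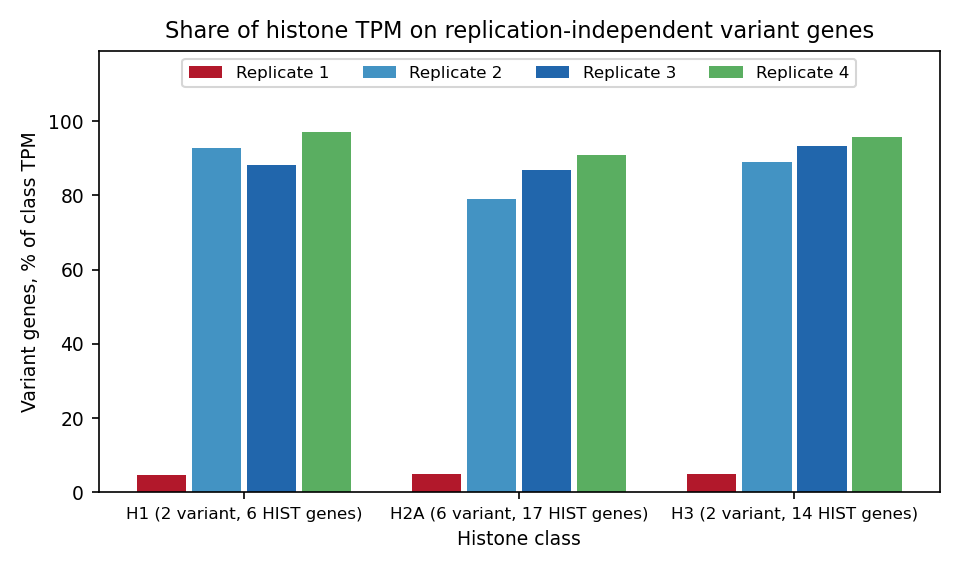
Share of the replication-independent variant genes in the summed TPM of these and the HIST genes of their class, in each replicate. Values are percents from 0 to 100. In replicate 1 the variants hold 4.55% to 5.02% of each class, against 79.1% to 97.2% in replicates 2 to 4.

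Other histone variants were mostly at or near 0. Of 14 listed genes 13 are in the files, and only CENPA, the H3 variant of centromeres, had a mean above 1 TPM, beside 63.3% of all protein-coding genes. CENPA had 42.6, 36.5, 50.4 and 62.3 TPM in replicates 1 to 4 (47.9 ± 11.1, SD, n = 4). With the deposited lengths CENPA lay between H2AFV and H2AFJ. It was not counted in the H3 class above, where the HIST genes summed to 16572.5, 76.8, 52.7 and 28.8 TPM in replicates 1 to 4. The testis and oocyte genes H2AFB1, H2AFB2, H2AFB3, H2BFWT, H2BFM, H1FNT and H1FOO had 0 counts in all 4 libraries, where 3 counts would be 0.0656 to 0.873 TPM, and H3F3C, a copy of H3F3B without introns, had 2, 1, 0 and 0 counts. HIST1H2BA, HIST1H2AA and HIST1H1T had 32, 19 and 17 counts in replicate 1 (3.01, 1.56 and 0.965 TPM) and at most 1 count in any other replicate. HIST3H3, the testis H3, had at most 1.67 TPM. All of these HIST genes are also among the 70.

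The 7 chaperone genes that serve H3.3 were all above 1 TPM on average, beside 63.3% of all protein-coding genes. They summed to 186, 291, 217 and 287 TPM in replicates 1 to 4, less in each replicate than the H3.3 genes. DAXX, which with ATRX deposits H3.3 at telomeres and repeats, led with 69.9 ± 12.7 TPM (SD, n = 4), followed by HIRA (49.7 TPM), the core of the complex that serves active genes, and UBN2 was lowest (4.37 TPM). In replicate 1, 3 of 7 were more than 2-fold below the others and 1 above, beside 20.1% and 17.4% of all genes, and in replicate 3, 2 were below, beside 14.4%. HIRA had 19.1, 74.9, 55.9 and 48.9 TPM and its partner UBN1 was also lowest in replicate 1. The remodeller gene ATRX had 40.2, 17.2, 4.55 and 26.5 TPM, highest in replicate 1 on this scale and lowest in replicate 3.

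Genes for replication-coupled assembly, which serve the S-phase histones, summed to 147, 291, 353 and 286 TPM. Of the 4, ASF1B (153 ± 55.8 TPM, SD, n = 4), CHAF1A and CHAF1B, subunits of the assembly factor CAF-1, were more than 2-fold below in replicate 1 (beside 20.1% of all genes), at -1.16, -1.78 and -1.30 on the log2 scale. The 10 DNA replication genes summed to 1646, 1965, 2683 and 1946 TPM. PCNA, the replication clamp, and the helicase subunit gene MCM7 led with 637 and 302 TPM, and TYMS, MCM6 and RRM2 (3 of 10) were more than 2-fold below in replicate 1, beside the same 20.1% of all genes, where RRM1 was at 0.76. Both sums were lowest in replicate 1 and highest in replicate 3, as was H2AFX, while the HIST genes were highest in replicate 1.

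For H2A.Z, 11 of 11 genes of its exchange were above 1 TPM on average, beside 63.3% of all protein-coding genes, with sums of 679, 811, 825 and 736 TPM. RUVBL2 (200.2 TPM) and RUVBL1 (105 TPM), ATPases common to several remodelling complexes, were highest, and ACTR6 was lowest (16.6 TPM). In replicate 1, 2 of 11 were more than 2-fold below (20.1% of all genes), the catalytic subunits SRCAP (5.22, 65.6, 32.4 and 51.2 TPM in replicates 1 to 4) and EP400 (3.83, 30.3, 14.5 and 36.4 TPM), and 1 of 11, ACTR6, was above (17.4%). In replicates 2 and 4, 2 each were above (beside 7.83% and 6.89% of all genes). H2AFZ itself deviated by -0.11 in replicate 1.

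The 16 kinases, phosphatases and readers of H2A.X are the genes through which γ-H2AX is written, removed and read. Of these, 13 had a mean above 1 TPM, beside 63.3% of all protein-coding genes. The 16 genes summed to 621, 619, 549 and 726 TPM. PPP4C and PPP2CA, catalytic subunits of phosphatases, were highest (162 and 145 TPM), and the phosphatase gene PPM1D was the lowest of those above 1 TPM (5.72 TPM). Among the kinases, ATM had 41.0, 10.1, 3.44 and 15.0 TPM in replicates 1 to 4, and PRKDC had 96.2, 87.9, 36.1 and 128 TPM. Both kinase genes were lowest in replicate 3, as were genes of other lists such as ATRX, DSP and CASP8AP2, so this was not particular to kinases of H2A.X. ATM, PRKDC and ATRX have deposited lengths of 13147, 13506 and 11220 bp. SRCAP (10474 bp) and EP400 (12317 bp), also long, were lowest in replicate 1, and among replicates 2 to 4 they were lowest in replicate 3. The part of gene length was not tested. MDC1, which binds γ-H2AX, had 3.64, 28.4, 17.8 and 34.0 TPM and was lowest in replicate 1. In replicate 3, 4 of the 13 were more than 2-fold below, beside 14.4% of all genes.

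Of 10 listed protein-coding genes for the making or maturation of stem-loop histone messages, 10 had a mean above 1 TPM (beside 63.3% of all protein-coding genes). They summed to 337, 384, 378 and 326 TPM. SLBP, which binds the stem-loop, was highest at 90.1 ± 29.98 TPM (SD, n = 4), with 77.5, 88.2, 132 and 62.4 TPM in replicates 1 to 4, and was not 2-fold away in any replicate. SYMPK, a scaffold of the cleavage complex, followed, and LSM11 was lowest (6.37 TPM). LSM10, which like LSM11 belongs to the U7 particle, had 7.10, 60.2, 74.5 and 44.2 TPM. In replicate 1, 2 of 10 were above and 2 below by more than 2-fold, beside 17.4% and 20.1% of all genes, and the median deviation of the list was 0.25, against 0.03 over all genes.

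The 5 genes whose pattern over the 4 replicates was most like that of H2AFX, out of 8935 protein-coding genes above 10 TPM, were DKK3, MESDC1, SLC25A6, CENPV and EIF1. Their root mean square difference from H2AFX in centred log2(TPM + 1) was 0.12 to 0.14, against a median of 0.98 over the candidates. DKK3 had 19.1, 74.3, 107 and 93.0 TPM and EIF1 had 229, 805, 1028 and 926 TPM in replicates 1 to 4. This likeness covers 4 libraries only.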

How the data were processed

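RNA-seq data of 4 untreated HaCaT replicates were used. The authors deposited raw read counts per gene with a gene length, without normalization, beside RPKM for replicates 1 and 2 and TPM for replicates 3 and 4. Recomputing the deposited RPKM and TPM from the deposited counts returned them to within 2.41e-07 of their value. The submitters' processing notes name hg19, HISAT2, HISAT, TopHat2 and Bowtie2 without versions or roles. The counting program, the annotation, the use of strand and the selection of RNA are not given in the sources used here.

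TPM over protein-coding genes was computed for all 4 replicates, since RPKM and TPM cannot be averaged. Means are given with SD over 4 replicates. A pseudocount of 1 was added on the log2 scale, on which a fold understates the change of low genes, and a mean above 1 TPM was called detected. With 1 group no differential expression was tested. Scripts were tested on simulated data. Transcripts of GENCODE release 29 (GRCh38) matched 97.2% of protein-coding symbols. The 10 genes and the lists were chosen with earlier results of these data known. All 10 were described in full, and from each list the 2 highest genes, the lowest above 1 TPM and up to 3 with the largest deviation past 2-fold, with a few more named after their values were seen. Scaling factors of edgeR 4.0.16 (TMM) and DESeq2 1.42.0 (median of ratios) under R 4.3.3 served only as alternatives. Values were computed with SciPy 1.17.1, pandas 2.3.3 and NumPy 2.4.6 under Python 3.11.15 and drawn with matplotlib 3.10.9.

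Total counts of 17056035 to 73082279 per library put 3 counts, taken as the floor, at 0.0539 to 0.185 counts per 1000000 protein-coding counts. Other settings were TPM over all genes, upper quartile scaling, a total without HIST and mitochondrial genes, pseudocounts of 0.1 and 0, detection limits of 0.1 and 10 TPM, no filter, GC bins, read counts scaled to 1000000 without length, GENCODE lengths, values as deposited and leaving out each replicate.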

Additional observations from a re-analysis of the deposited data

Results flagged for a closer look

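In 4 of 35 sets of 4 replicate values, 1 replicate lay farther from the nearest of the others than Dixon's 95% limit for 4 values, where chance gives about 1 in 20 sets (1.75 of 35). The sets are not independent. All 4 were the low value of replicate 1 in the share of the variant genes in the summed TPM of variant and HIST genes. It was 4.55% of H1, 4.84% of H2A, 5.02% of H3 and 2.698% of all classes together. The last share is taken over all 70 HIST genes, which include H2B and H4 genes without a variant among the 10 genes. It was 78.9%, 81.0% and 88.9% in replicates 2 to 4. No level of a single variant gene was past the limit. The summed TPM of the HIST genes moved with these shares, and the selection of RNA was not tested as part of them.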

How the results depend on the processing

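All 10 genes were detected under each unit and limit tried. The mean differences H3F3B minus H3F3A and H1FX minus H1F0 had no stable sign. The former ran from -0.20 to 0.24 when a replicate was left out, below 0 without replicate 2 (-0.20) and without replicate 3 (-0.05), and was -0.26 with the copies of H3F3A added. The latter ran from -0.23 to 0.27 (0.27 without replicate 2, 0.0020 without replicate 4) and was 0.0040 with GENCODE lengths and -0.63 in read counts scaled to 1000000 without length. H2AFZ minus H2AFX turned to -0.085 in such scaled counts, and was 0.19 to 0.91 when a replicate was left out. The other 3 differences kept their sign under every setting tried.

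The number of variant genes more than 2-fold from the other replicates changed most with TPM over all genes, where it was 10, 2, 3 and 1 in replicates 1 to 4. The 10 in replicate 1 were below, beside 62.5% of all genes. Those in replicates 2 to 4 were above, beside 18.3%, 8.93% and 23.3% of all genes. With this scaling the median range over replicates was 1.95 (1.70 over all genes). That scaling moved the median deviation of all genes to -1.30, 0.55, 0.16 and 0.64 in replicates 1 to 4. With TMM the number in replicate 3 was 2, with H2AFZ added, both above (beside 7.06% of all genes). When a replicate was left out it was 0 to 1 in replicate 3 (0 without replicate 1), beside 0.671% to 6.97% of all genes above. In replicate 4 it was 0 to 1 (1 without replicate 3, H2AFX above, beside 8.62% of all genes). The median range was 0.56 to 0.74. The causes were not tested. Mean levels from the deposited values were not run, as RPKM and TPM cannot be averaged, and for levels such scaled counts gave only the order of genes. No paired analysis was possible because the study has 1 group, so no samples can be paired across conditions, and the pairs above are of genes within a replicate.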
